A study of Mus musculus with 14 samples.

Results

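The cytosolic chaperone HSP90, the co-chaperones that work with it and the heat shock factors were followed in mouse B16-F10 melanoma cells after heat shock, Lipofectamine or benzyl alcohol. The members were fixed by gene name as 10 genes: Hsp90aa1 and Hsp90ab1, the co-chaperones Stip1, Ahsa1, Chordc1, Cacybp, Fkbp4 and Ptges3, and the factors Hsf1 and Hsf2. A probeset, the group of short probes that reads a transcript on an Affymetrix array, was taken where its platform symbol is a member and nothing else. This gave 10 probesets of 7 genes among the 22626 probesets tested. Hsp90aa1 has 3 of them, Fkbp4 has 2, and Stip1, Ahsa1, Chordc1, Cacybp and Hsf2 have 1 each. No probeset carries the symbol Hsp90ab1 or Hsf1 in the annotation used, and both genes are not analysed here. Ptges3 stands only on 2 probesets that it shares with its pseudogene Ptges3-ps, so no value is given for it.

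HSP90 is an abundant ATP-driven chaperone that holds kinases, steroid receptors and other client proteins in a form that can be activated. It works as a dimer in a cycle: Stip1 hands clients over from HSP70, Ahsa1 speeds up ATP hydrolysis, Ptges3 stabilises the closed state, and immunophilins such as Fkbp4 join mature receptor complexes. Hsf1 and Hsf2 are transcription factors that bind heat shock elements, arrays of short inverted repeats in promoters of chaperone genes. Hsp90aa1 is the stress-inducible form of cytosolic HSP90 and Hsp90ab1 the form made constitutively.

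RNA was measured on 14 arrays, each labelled as a biological replicate of the same line, which derives from a C57BL/6J mouse and was grown at 37°C in RPMI with serum. The control group has 5 arrays of untreated cells. The 3 heat shock arrays come from cells kept for 1 h at 42.5°C and then for 30 min at 37°C. The 3 Lipofectamine arrays come from cells kept for 3 h in Opti-MEM with Lipofectamine but no plasmid DNA and then for 30 min in RPMI with serum, so that the reagent and the change of medium cannot be told apart against untreated controls. The 3 benzyl alcohol arrays come from cells given 40 mM for 1 h at 37°C, with a recovery of 3 h in the treatment protocol and of 30 min in the design text. The values are log2 signals made by the authors with RMA, and array medians lay between 7.03 and 7.12. The p-values given below measure the spread between these labelled replicates of a single line.

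The label of the cells was checked against marker genes. The 6 melanocyte markers measured averaged between 10.4 and 13.2 over the arrays (log2 signal), with the melanin enzyme Dct at 13.1 and the melanosome protein Pmel at 13.2. The means of 6 fibroblast, 5 macrophage and 5 epithelial markers lay between 3.46 and 8.13. The heat-inducible chaperone gene Hspa1b (1427126_at) averaged 5.04 in control, 7.45 in Lipofectamine, 9.86 in benzyl alcohol and 11.03 in heat shock arrays. Control arrays 1 and 3 stood apart from control arrays 2, 4 and 5: the sets did not overlap at 38.7% of all probesets and at 8 of the 10 member probesets. Of these 8, 6 had the lower signal in arrays 1 and 3, by up to 0.66 for Fkbp4, and the higher signal there was that of Hsp90aa1 1438902_a_at (0.26) and Chordc1 (0.28). The labels do not divide the controls in this way. Any such split leaves some probesets without overlap by chance, a share not worked out here. Comparisons with control were therefore refitted without either set. Such a refit takes the difference between the sets out of the spread between controls. Without arrays 1 and 3 the share of all probesets called was 21.8% for heat shock, 18.8% for Lipofectamine and 3.03% for benzyl alcohol, and without arrays 2, 4 and 5 it was 3.72%, 4.62% and 12.5%, and calls gained below in such a fit are to be read against its share. The shares in the fits of all arrays are given with the counts below.

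Promoters were searched for heat shock elements because the factors named here act through them. RefSeq promoters (GRCm38.p6, 250 bases before to 50 after the start) were at hand for 7 of the 10 members: Stip1, Ahsa1, Chordc1, Cacybp, Fkbp4, Ptges3 and Hsf2. An element was defined as at least 3 touching units of NGAAN in alternating orientation, on both strands, and 198 of 32851 promoters (0.603%) hold one. Among these 7 members Chordc1 alone holds one, with 5 units over 23 bases from -4 to +19 around its start. A looser search for 2 such units, GAANNTTC or TTCNNGAA, was added after seeing the data. It matched 15.1% of all promoters, and among the members Chordc1, within the longer element, and Fkbp4. Both stretches are shown because each of these genes had a probeset that rose after heat shock, though the brighter Fkbp4 probeset did not pass. Cacybp rose too and its promoter matched neither search. Hsp90aa1, which also had a rising probeset, has no promoter among those searched. A link between match and response was not tested. The Chordc1 stretch is chr9:18292017-18292285 on the plus strand, with the 5 units in capitals. The Fkbp4 stretch is chr6:128438657-128438906 on the minus strand, the 250 bases before the start, with the pair of units from -151 to -144 in capitals.
Chordc1: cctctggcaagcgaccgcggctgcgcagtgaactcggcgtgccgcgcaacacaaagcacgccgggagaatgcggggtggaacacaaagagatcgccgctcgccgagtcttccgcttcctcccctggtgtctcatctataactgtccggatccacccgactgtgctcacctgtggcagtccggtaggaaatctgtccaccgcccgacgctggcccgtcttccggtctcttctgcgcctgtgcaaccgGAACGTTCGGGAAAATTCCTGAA
Fkbp4: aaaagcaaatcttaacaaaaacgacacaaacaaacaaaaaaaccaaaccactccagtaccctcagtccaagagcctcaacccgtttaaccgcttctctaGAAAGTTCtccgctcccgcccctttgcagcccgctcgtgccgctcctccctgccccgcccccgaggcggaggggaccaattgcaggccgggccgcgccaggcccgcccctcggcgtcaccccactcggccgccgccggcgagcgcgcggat
A match is a description of letters and no measure of binding, and the absence of a match says only that these letters are not in the window.

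After heat shock 4 of the 10 probesets rose and 0 fell: Hsp90aa1 1437497_a_at, Chordc1, Cacybp and Fkbp4 1416363_at, by 0.40 to 0.81 on the log2 scale. In the same limma fit 5.96% of all probesets were called in either direction, 1.05% higher and 4.91% lower. After benzyl alcohol 3 probesets rose and 0 fell: Hsp90aa1 1437497_a_at, Ahsa1 and Chordc1, by 0.58 to 0.64, where 1.39% of all probesets were called and 0.689% were called higher. After Lipofectamine limma called 0 of the 10, where 4.88% of all probesets were called (1.78% higher and 3.1% lower), and 2 had an unadjusted p under 0.05. Such a p was reached by 5 after heat shock and by 4 after benzyl alcohol. The share of all probesets at that p was not worked out, so these counts have no background beside them. The median difference of the 10 probesets from control was 0.29 after heat shock, 0.04 after Lipofectamine and 0.22 after benzyl alcohol, beside medians of 0.03, -0.02 and 0.02 over all probesets. These 3 comparisons share the control arrays. Without heat shock array 1, 2 or 3 the share of all probesets called after heat shock was 1.7%, 1.14% and 1.27%. Without Lipofectamine array 1, 2 or 3 the Lipofectamine share was 1.13%, 3.35% and 2.1%. Without benzyl alcohol array 1, 2 or 3 the benzyl alcohol share was 0.84%, 1.24% and 0.579%. Calls lost below in such a fit are to be read against its share. In RNA of whole cultures a smaller number of cells of a kind and less RNA per cell cannot be told apart.

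**Figure D1:**
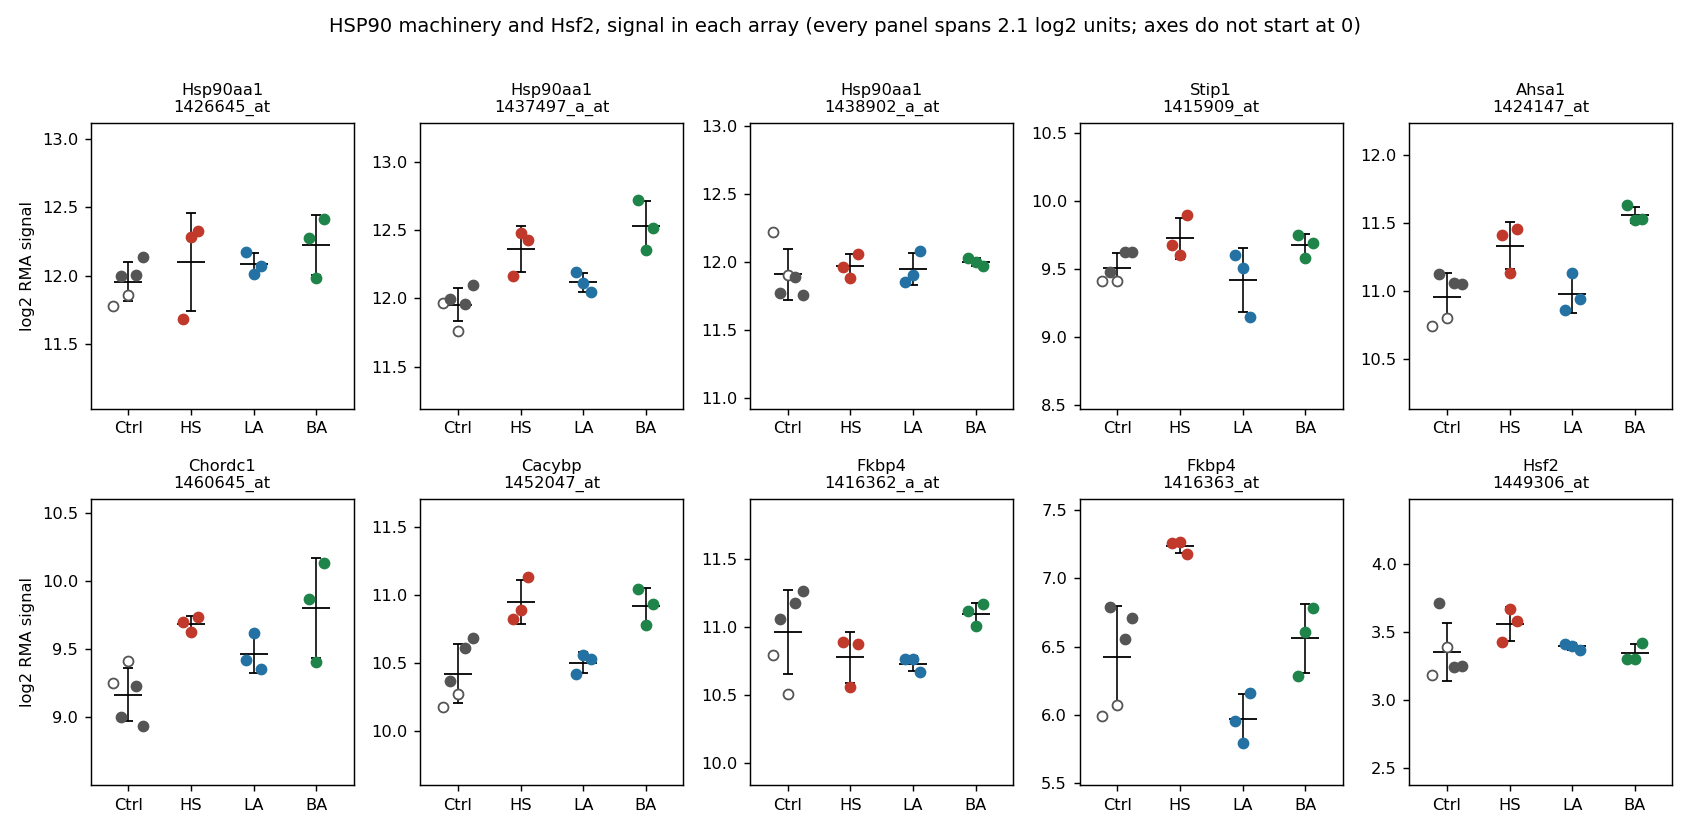
Log2 RMA signal of the 10 member probesets in each of the 14 arrays (Ctrl control, HS heat shock, LA Lipofectamine, BA benzyl alcohol), with group means as horizontal bars and SDs as whiskers, and control arrays 1 and 3 as open circles. Every panel spans the same log2 range and no axis starts at 0. The heat shock points of Fkbp4 1416363_at lie between 7.18 and 7.27, above every other array, and the benzyl alcohol points of Ahsa1 lie between 11.52 and 11.63, above every other array.

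Hsp90aa1 was read by 3 probesets that did not move alike. The probeset 1437497_a_at, whose suffix marks probes that match several transcripts of a gene, is the brightest. Its log2 signal in control arrays 1 to 5 was 11.97, 11.99, 11.76, 11.96 and 12.10, after heat shock 12.17, 12.48 and 12.43, after Lipofectamine 12.19, 12.11 and 12.05, and after benzyl alcohol 12.72, 12.35 and 12.52, in the order of the replicate numbers. All heat shock and benzyl alcohol arrays lay above the highest control array, while the Lipofectamine arrays overlapped the controls. The mean rose from 11.96 ± 0.12 (SD, n = 5) to 12.36 ± 0.17 (n = 3) after heat shock, a difference of 0.40 (1.32-fold, SE 0.10, 95% confidence interval 0.18 to 0.63, limma adjusted p = 0.0366). After benzyl alcohol it rose by 0.58 (1.49-fold, SE 0.11, interval 0.35 to 0.81, limma adjusted p = 0.0126). The Lipofectamine difference was 0.16 with an interval from -0.06 to 0.39 (limma adjusted p = 0.459). The heat shock call was lost without control array 2 (0.41, limma adjusted p = 0.053), control array 4 (0.40, 0.0781), heat shock array 2 (0.34, 0.19), heat shock array 3 (0.37, 0.164) or Lipofectamine array 1 (0.40, 0.0584). It was lost in 10 of 23 alternatives, with a limma adjusted p from 0.00292 to 0.19. Among them were the fit of 2 groups (0.40, 0.0573), renewed quantile normalization (0.38, 0.0561) and the replicate number as a block (0.45, 0.179). The benzyl alcohol call was lost without benzyl alcohol array 1 (0.48, limma adjusted p = 0.0753) or 3 (0.58, 0.0597) and in the fit of 2 groups (0.58, 0.0738). It was lost in 4 of 25 alternatives, with a limma adjusted p from 0.00451 to 0.0753.

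The other Hsp90aa1 probesets passed in no comparison. Probeset 1426645_at read 11.78, 11.99, 11.86, 12.01 and 12.14 in the controls, 11.68, 12.28 and 12.33 after heat shock, 12.18, 12.01 and 12.07 after Lipofectamine, and 12.27, 11.98 and 12.41 after benzyl alcohol. Here heat shock array 1 lay below every control array while heat shock arrays 2 and 3 lay above all of them. Its heat shock difference was 0.14 (interval -0.16 to 0.45, limma adjusted p = 0.558) and its benzyl alcohol difference 0.27 (-0.03 to 0.57, limma adjusted p = 0.452). Probeset 1438902_a_at ranged from 11.76 to 12.22 in the controls, from 11.88 to 12.06 after heat shock, from 11.86 to 12.08 after Lipofectamine and from 11.97 to 12.03 after benzyl alcohol, so that the control range held all treated arrays. Its differences were 0.06, 0.04 and 0.09 (limma adjusted p = 0.78, 0.926 and 0.801).

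Stip1, the adaptor between HSP70 and HSP90, passed in no comparison. It read 9.41, 9.48, 9.41, 9.62 and 9.62 in the controls, 9.67, 9.60 and 9.89 after heat shock, 9.60, 9.50 and 9.15 after Lipofectamine and 9.75, 9.58 and 9.69 after benzyl alcohol. Each treatment overlapped the controls, and Lipofectamine array 3 was the lowest of all 14. The differences from control were 0.21 after heat shock (interval -0.04 to 0.47), -0.09 after Lipofectamine (-0.34 to 0.16) and 0.17 after benzyl alcohol (-0.07 to 0.40), with limma adjusted p-values of 0.291, 0.782 and 0.594.

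Ahsa1, the activator of the HSP90 ATPase, rose after benzyl alcohol. Its signal was 10.74, 11.13, 10.80, 11.06 and 11.05 in the controls, 11.41, 11.13 and 11.45 after heat shock, 10.86, 11.13 and 10.94 after Lipofectamine, and 11.63, 11.52 and 11.53 after benzyl alcohol. The benzyl alcohol arrays lay close together and above every other array. Heat shock array 2 lay almost level with the highest control array, and the other heat shock arrays were above all controls. From 10.96 ± 0.17 (SD, n = 5) the mean rose to 11.56 ± 0.06 (n = 3) after benzyl alcohol, by 0.60 (1.52-fold, SE 0.11, interval 0.37 to 0.84, limma adjusted p = 0.0124). The heat shock difference was 0.38 (SE 0.12, interval 0.12 to 0.63) and did not pass (limma adjusted p = 0.0785), and the Lipofectamine difference was 0.02 (-0.24 to 0.28, limma adjusted p = 0.967). Without control arrays 2, 4 and 5 the heat shock difference was 0.56 (limma adjusted p = 0.0317) and with array weights 0.32 (0.0308), and arrays 1 and 3 averaged 0.31 below the other controls. The benzyl alcohol call was lost without benzyl alcohol array 1 (0.57, limma adjusted p = 0.0602) or 3 (0.62, 0.0551) and in the fit of 2 groups (0.60, 0.061). Over 25 alternatives its limma adjusted p ranged from 7.80e-04 to 0.061.

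Chordc1 encodes an HSP90-binding protein with zinc-binding CHORD domains, and it rose after heat shock and after benzyl alcohol. It read 9.25, 9.004, 9.41, 9.23 and 8.93 in the controls, 9.70, 9.63 and 9.73 after heat shock, 9.42, 9.62 and 9.35 after Lipofectamine, and 9.87, 9.41 and 10.13 after benzyl alcohol. The heat shock arrays were tightly grouped above all controls. The benzyl alcohol arrays were spread widely, and array 2 lay level with the highest control, array 3. After heat shock the mean rose from 9.17 ± 0.19 (SD, n = 5) to 9.69 ± 0.05 (n = 3), by 0.52 (1.44-fold, SE 0.12, interval 0.27 to 0.77, limma adjusted p = 0.0215). After benzyl alcohol it reached 9.80 ± 0.37 (n = 3), higher by 0.64 (1.55-fold, SE 0.14, interval 0.33 to 0.94, limma adjusted p = 0.0389). The Lipofectamine difference was 0.30 (interval 0.05 to 0.55, limma adjusted p = 0.168), and without control arrays 1 and 3 it was 0.41 and passed (0.0151). Its promoter holds the 5-unit element printed above. The heat shock call was lost without heat shock array 1 (0.52, limma adjusted p = 0.0803), 2 (0.55, 0.0837) or 3 (0.50, 0.103), and without control arrays 2, 4 and 5 (0.36, 0.133). It was lost in 7 of 23 alternatives, also with the replicate number as a block (0.465, limma adjusted p = 0.193), in a range from 4.73e-04 to 0.193. The benzyl alcohol call was lost in 15 of 25 alternatives (limma adjusted p from 0.0028 to 0.248), among them those without benzyl alcohol array 1 (0.60) or 3 (0.47), any 1 heat shock array, Lipofectamine array 1 (each 0.64), control array 1 (0.66), 2 (0.60), 4 (0.65) or 5 (0.58), or all of control arrays 2, 4 and 5 (0.47).

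Cacybp, a calcyclin-binding protein with a domain like that of the co-chaperone SGT1, rose after heat shock. Its signal was 10.18, 10.37, 10.27, 10.61 and 10.68 in the controls, 10.82, 10.89 and 11.13 after heat shock, 10.42, 10.56 and 10.53 after Lipofectamine, and 11.04, 10.78 and 10.93 after benzyl alcohol. All heat shock and all benzyl alcohol arrays lay above the highest control, and all Lipofectamine arrays lay within the control range. From 10.42 ± 0.22 (SD, n = 5) the mean rose to 10.95 ± 0.16 (n = 3) after heat shock, by 0.53 (1.44-fold, SE 0.12, interval 0.26 to 0.79, limma adjusted p = 0.0276). The benzyl alcohol mean of 10.92 ± 0.13 (n = 3) differed from control by 0.50 (SE 0.12, interval 0.24 to 0.75) and did not pass (limma adjusted p = 0.0558), and it passed without control array 4 (0.54, 0.0488), without control array 5 (0.56, 0.0296), without control arrays 2, 4 and 5 (0.69, 0.00186) and under 6 other settings. The Lipofectamine difference was 0.08 (interval -0.19 to 0.35, limma adjusted p = 0.83). The heat shock call was lost without heat shock array 1 (0.59, limma adjusted p = 0.0638), 2 (0.56, 0.102) or 3 (0.43, 0.148). It was lost in 6 of 23 alternatives, also in the fit of 2 groups (0.53, limma adjusted p = 0.0528), in a range from 0.00413 to 0.148.

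Fkbp4, the immunophilin FKBP52 of steroid receptor complexes, was read by 2 probesets whose heat shock differences had opposite signs. Probeset 1416363_at read 5.99, 6.79, 6.07, 6.55 and 6.71 in the controls, 7.26, 7.27 and 7.18 after heat shock, 5.95, 5.79 and 6.16 after Lipofectamine, and 6.28, 6.61 and 6.78 after benzyl alcohol. The heat shock arrays formed a narrow group above all others, and the Lipofectamine arrays overlapped only control arrays 1 and 3. After heat shock the mean rose from 6.42 ± 0.37 (SD, n = 5) to 7.24 ± 0.05 (n = 3), by 0.81 (1.76-fold, SE 0.17, interval 0.44 to 1.19, limma adjusted p = 0.0188). The Lipofectamine difference was -0.46 (interval -0.83 to -0.08, limma adjusted p = 0.16) and the benzyl alcohol difference 0.13 (-0.24 to 0.51, limma adjusted p = 0.823). Control arrays 1 and 3 averaged 0.66 below the others here, and without them the Lipofectamine value fell by 0.72 and passed (limma adjusted p = 1.84e-04), as it did without control array 1 alone (-0.57, 0.0345), while without control arrays 2, 4 and 5 it was -0.06 (0.9) and the benzyl alcohol difference was 0.53 (0.0274). The heat shock difference was 0.55 against control arrays 2, 4 and 5 alone and 1.21 against control arrays 1 and 3 alone, and both passed (limma adjusted p = 0.00176 and 6.92e-05). It was lost without heat shock array 1 (0.80, limma adjusted p = 0.0744), 2 (0.80, 0.0961) or 3 (0.84, 0.0728), in a range from 6.92e-05 to 0.0961 over 22 alternatives.

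The brighter Fkbp4 probeset, 1416362_a_at, passed in no comparison with control. It read 10.79, 11.05, 10.51, 11.17 and 11.26 in the controls, 10.89, 10.56 and 10.87 after heat shock, 10.76, 10.76 and 10.67 after Lipofectamine, and 11.11, 11.002 and 11.16 after benzyl alcohol. All heat shock and Lipofectamine arrays lay below control arrays 2, 4 and 5, and all treated arrays lay within the control range. Its differences were -0.18 after heat shock (interval -0.51 to 0.14), -0.23 after Lipofectamine (-0.56 to 0.10) and 0.13 after benzyl alcohol (-0.17 to 0.44), with limma adjusted p-values of 0.489, 0.491 and 0.771. Control arrays 1 and 3 averaged 10.65 and the others 11.16. Without control arrays 1 and 3 the heat shock difference was -0.39 (limma adjusted p = 0.0185) and the Lipofectamine difference -0.44 (0.0106), and without control arrays 2, 4 and 5 they were 0.12 (0.643) and 0.08 (0.878), and the benzyl alcohol difference 0.44 (0.0396). The sign of the heat shock and Lipofectamine differences turned with the control set. Where in the transcript each probeset lies was not used here.

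Hsf2, a heat shock factor that binds the same elements as Hsf1, gave a signal between 3.18 and 3.71 on all 14 arrays, close to the lowest value deposited, 2.67. Control arrays read 3.18, 3.71, 3.39, 3.24 and 3.25, heat shock arrays 3.42, 3.67 and 3.58, Lipofectamine arrays 3.41, 3.40 and 3.37, and benzyl alcohol arrays 3.30, 3.30 and 3.42. All treated arrays lay within the control range. The differences were 0.20, 0.04 and -0.01 in the order heat shock, Lipofectamine and benzyl alcohol (limma adjusted p = 0.322, 0.928 and 0.976). Detection calls were not used here, so this signal cannot be told from background.

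**Figure D2:**
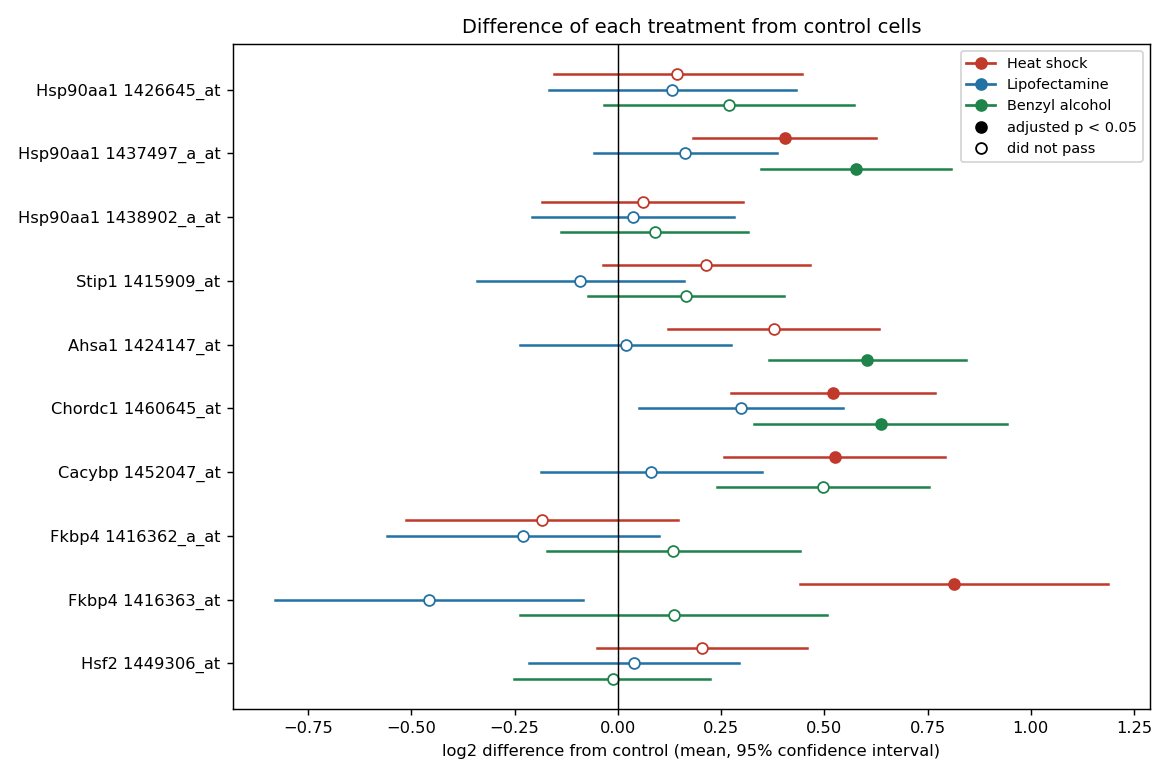
Difference of each treatment from control on the log2 scale for the 10 member probesets, with 95% confidence intervals from limma, where filled points passed at an adjusted p under 0.05. The filled points are 4 for heat shock, 3 for benzyl alcohol and 0 for Lipofectamine, and the heat shock and Lipofectamine intervals of Fkbp4 1416363_at do not overlap (0.44 to 1.19 and -0.83 to -0.08).

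The treatments were also set directly against each other. Between heat shock and Lipofectamine 1 of the 10 probesets differed by limma, Fkbp4 1416363_at, where 5.72% of all probesets were called. It was higher after heat shock by 1.27 (2.41-fold, SE 0.19, interval 0.85 to 1.69, limma adjusted p = 0.00275), all heat shock arrays lay above all Lipofectamine arrays, and the call held under every alternative that tested the probeset. The brighter Fkbp4 probeset, 1416362_a_at, differed by 0.04 (interval -0.32 to 0.41, limma adjusted p = 0.908), so the rise rests on the dimmer probeset alone. Cacybp was 0.44 higher after heat shock without passing (interval 0.15 to 0.74, limma adjusted p = 0.0824), and so were Ahsa1 at 0.36 (0.143) and Stip1 at 0.31 (0.202). In a fit without control arrays 1 and 3, which alters the spread but not these differences, Ahsa1 (limma adjusted p = 0.047) and Cacybp (0.0169) passed, and Cacybp did so without the other controls too (0.0193). The shares of all probesets called in these fits were 13.6% and 11.6%. Hsp90aa1 1437497_a_at and Chordc1 differed by 0.24 (interval -0.01 to 0.49) and 0.22 (-0.05 to 0.50).

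Between Lipofectamine and benzyl alcohol 2 of the 10 differed, where 11.9% of all probesets were called. Ahsa1 was 0.58 lower after Lipofectamine (log2 difference -0.58, SE 0.13, interval -0.85 to -0.32, limma adjusted p = 0.00788) and Hsp90aa1 1437497_a_at was lower too (-0.41, SE 0.12, interval -0.67 to -0.16, limma adjusted p = 0.0361). In both, no Lipofectamine array reached the lowest benzyl alcohol array. The Hsp90aa1 call was lost without Lipofectamine array 1 (-0.45, limma adjusted p = 0.0731), 2 (-0.41, 0.0771) or 3 (-0.38, 0.0996) and without benzyl alcohol array 1 (-0.32, 0.141) or 3 (-0.42, 0.0886). It was lost in 9 of 25 alternatives, also in the fit of 2 groups (-0.41, limma adjusted p = 0.0606). Cacybp (-0.42, limma adjusted p = 0.0584) and Fkbp4 1416363_at (-0.59, 0.0613) did not pass. Cacybp passed without control array 1 (0.0397) or 5 (0.044), Fkbp4 1416363_at without control array 1 (0.0311), 2 (0.0466) or 3 (0.0393) or benzyl alcohol array 1 (-0.73, 0.0494), and Chordc1 (-0.34, 0.205) without benzyl alcohol array 2 (-0.54, 0.032). Fits without control arrays 1 and 3, or without the other controls, called Cacybp (limma adjusted p = 0.0187 and 0.0191), Fkbp4 1416363_at (0.00375 and 0.00536) and Fkbp4 1416362_a_at (-0.36, 0.0269 and 0.0467) as well, beside 19.2% and 17.4% of all probesets.

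Between heat shock and benzyl alcohol 1 of the 10 differed, again Fkbp4 1416363_at, where 7.22% of all probesets were called. It was higher after heat shock by 0.68 (1.60-fold, SE 0.20, interval 0.26 to 1.09, limma adjusted p = 0.0477). This call lay just inside the threshold and was lost in 12 of 24 alternatives. Among them were those without control array 4, any 1 heat shock array, any 1 Lipofectamine array or any 1 benzyl alcohol array. These gave differences from 0.54 to 0.79 and limma adjusted p-values from 0.0522 to 0.215. The brighter Fkbp4 probeset, 1416362_a_at, had the opposite sign and did not pass (-0.32, interval -0.66 to 0.025, limma adjusted p = 0.272). For Hsp90aa1 1437497_a_at the difference was -0.17 (interval -0.43 to 0.08), for Ahsa1 -0.23 (-0.49 to 0.04), for Chordc1 -0.11 (-0.46 to 0.23) and for Cacybp 0.03 (-0.26 to 0.32). These intervals bound the differences and do not show that both treatments acted alike.

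Other proteins that work with HSP90 were taken from a list of 25 co-chaperones, of which 22 were measured. After heat shock 2 rose, 0 fell and 20 did not pass, with a median difference of -0.10 beside 0.03 over all probesets, of which 1.05% were called higher and 4.91% lower. After Lipofectamine 2 fell, 0 rose and 20 did not pass (median -0.18 beside -0.02), beside 3.1% of all probesets called lower. After benzyl alcohol limma called 0 of 22, with 4 at an unadjusted p under 0.05 (median 0.07 beside 0.02). Such a p was reached by 5 of the 22 after heat shock and by 10 after Lipofectamine. The share of all probesets at that p was not worked out here. Without control arrays 1 and 3, of the 20 not called before, 6 fell and 0 rose after heat shock, beside 21.8% of all probesets called. In that setting 8 of 20 fell and 1 rose after Lipofectamine, beside 18.8%. Without control arrays 2, 4 and 5, 1 fell after heat shock, beside 3.72% of all probesets called. There 2 of 22 rose and 1 fell after benzyl alcohol, beside 12.5%, so that this count is near that of the background.

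St13, the HSP70-interacting protein HIP, rose after heat shock. It lay between 10.71 and 10.86 in the controls and read 11.15, 11.19 and 11.30 after heat shock, 10.95, 11.14 and 10.81 after Lipofectamine and 11.23, 10.91 and 11.26 after benzyl alcohol. Every heat shock and benzyl alcohol array lay above all controls, but the benzyl alcohol difference of 0.38 did not pass (limma adjusted p = 0.083). The heat shock difference was 0.46 (SE 0.09, limma adjusted p = 0.015), and the call was lost without heat shock array 2 (0.47, 0.0747), without heat shock array 3 (0.42, 0.0939) and without control arrays 2, 4 and 5 (0.42, 0.0872). It was lost in 5 of 23 alternatives, also with the replicate number as a block (0.45, limma adjusted p = 0.178). Ahsa2, a close relative of Ahsa1, lay between 9.67 and 9.81 in the controls and read 10.56, 10.17 and 10.32 after heat shock. These arrays were above all controls, by 0.60 on average (SE 0.12, limma adjusted p = 0.0135). The call was lost without heat shock array 1 (0.50, 0.0762) or 3 (0.62, 0.062) and with the replicate number as a block (0.63, 0.118). Its differences after Lipofectamine and benzyl alcohol, 0.28 and 0.09, did not pass (limma adjusted p = 0.217 and 0.844).

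The falls after Lipofectamine were those of Cdc37l1 and Ruvbl2. Cdc37l1, a relative of the kinase-specific co-chaperone Cdc37, read between 8.78 and 9.10 in the controls and 8.38, 8.45 and 8.22 after Lipofectamine, all below the lowest control. It fell by 0.62 on the log2 scale (SE 0.10, limma adjusted p = 0.00328) and passed with each array left out in turn. With the replicate number as a block the call was lost (-0.59, limma adjusted p = 0.0654). After benzyl alcohol Cdc37l1 read 8.96, 8.73 and 8.12, the last below every Lipofectamine array. That difference did not pass (-0.36, limma adjusted p = 0.271). Ruvbl2, an ATPase of the R2TP complex, read 10.39, 10.96, 10.63, 10.90 and 10.82 in the controls and 10.14, 10.31 and 9.94 after Lipofectamine, also all below the lowest control. It fell by 0.61 (SE 0.13, limma adjusted p = 0.0185), where arrays 1 and 3 averaged 0.39 below the other controls. That call was lost without Lipofectamine array 1 (-0.62, limma adjusted p = 0.0866) or 3 (-0.52, 0.0913) and without control arrays 2, 4 and 5 (-0.38, 0.142). It was lost in 6 of 23 alternatives, also in the fit of 2 groups (-0.61, limma adjusted p = 0.0576) and with the replicate block (-0.53, 0.12). Cdc37 itself differed by -0.29 after Lipofectamine (limma adjusted p = 0.134) and by -0.03 after heat shock (0.891), and without control arrays 1 and 3 its Lipofectamine value passed (-0.35, 0.0355).

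**Figure D3:**
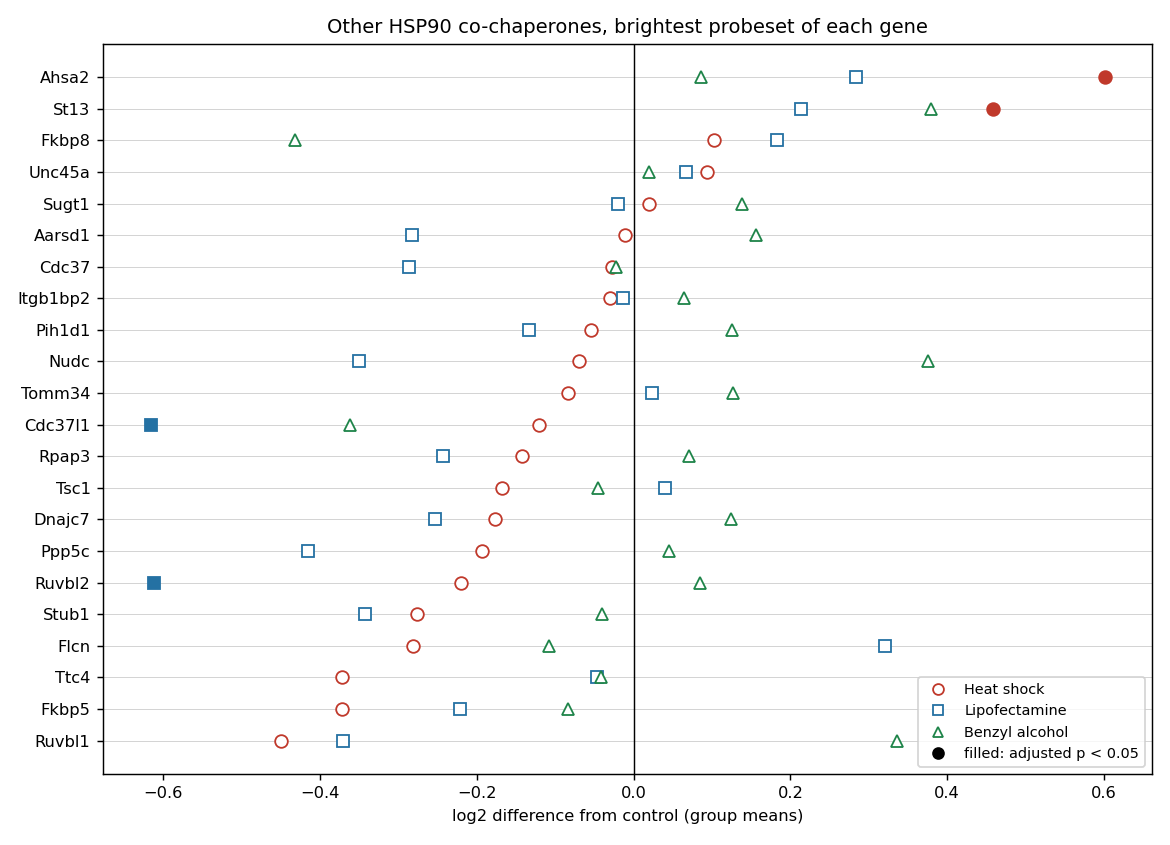
Difference from control (group means, log2 scale) of the 22 other HSP90 co-chaperones measured, each by its brightest probeset and ordered by the heat shock value, where filled symbols passed at a limma adjusted p under 0.05. Ahsa2 (0.60) and St13 (0.46) are filled for heat shock, Cdc37l1 (-0.62) and Ruvbl2 (-0.61) for Lipofectamine, and no symbol is filled for benzyl alcohol.

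The HSP90 forms of other compartments, Hsp90b1 of the endoplasmic reticulum and Trap1 of mitochondria, did not pass in any comparison with all 5 controls. Limma called 0 of these 2 after each treatment, with 0, 2 and 1 at an unadjusted p under 0.05 after heat shock, Lipofectamine and benzyl alcohol. Over all probesets the share at that p was not worked out. Hsp90b1 differed by 0.04, 0.54 and -0.67 in that order (limma adjusted p = 0.939, 0.217 and 0.161). Its controls had an SD of 0.54, and control arrays 1 and 3 averaged 11.94 and the others 11.17. Without control arrays 1 and 3 Hsp90b1 differed by 0.35, 0.85 and -0.36 (limma adjusted p = 0.0426, 4.60e-05 and 0.116), and without control arrays 2, 4 and 5 by -0.43, 0.08 and -1.13 (0.215, 0.916 and 6.17e-04), so that the control set decided its calls and, after heat shock, its sign. Trap1 differed by 0.02, -0.29 and -0.03 (limma adjusted p = 0.948, 0.199 and 0.955).

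Of 6 other heat shock factors and regulators, Hsf4 and Hsbp1 were measured. Hsf4, a factor best known from the lens, read 7.18, 7.27, 7.01, 7.36 and 7.25 in the controls and 6.90, 6.88 and 6.61 after Lipofectamine, all below the lowest control. It fell by 0.42 on the log2 scale (SE 0.10, limma adjusted p = 0.033), and the call was lost in 14 of 22 alternatives, among them those without control array 2 (-0.41, limma adjusted p = 0.0662), 4 (-0.38, 0.0827) or 5 (-0.41, 0.0678), Lipofectamine array 1 (-0.47, 0.0902) or 3 (-0.33, 0.135), heat shock array 1 (0.0518), 2 (0.0548) or 3 (0.0544), each -0.42, or control arrays 2, 4 and 5 together (-0.30, 0.25). Hsbp1, which binds heat shock factor trimers, differed by 0.21, 0.14 and -0.10 after heat shock, Lipofectamine and benzyl alcohol (limma adjusted p = 0.251, 0.57 and 0.791).

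Of 22 HSP90 clients listed, 17 were measured, and after heat shock 3 fell, 0 rose and 14 did not pass (median -0.13), where 4.91% of all probesets were called lower. Wee1, a kinase that restrains entry into mitosis, read 9.02, 9.38, 8.92, 9.23 and 9.36 in the controls and 8.09, 7.99 and 8.35 after heat shock. All heat shock arrays lay below the lowest control, and Wee1 fell by 1.04 (SE 0.13, limma adjusted p = 6.58e-04), a call that held under all 23 alternatives. Met, the receptor of hepatocyte growth factor, read 9.43, 10.16, 8.37, 10.16 and 10.85 in the controls and 8.16, 8.19 and 7.97 after heat shock. It fell by 1.69 (SE 0.38, limma adjusted p = 0.0243), where arrays 1 and 3 averaged 1.49 below the other controls. Cdk4, a kinase of the early cell cycle whose probeset suffix (1422441_x_at) marks probes that may also match other transcripts, fell by 0.68 (limma adjusted p = 0.0259). Without control arrays 2, 4 and 5 Met differed by -0.79 (limma adjusted p = 0.0514) and Cdk4 by -0.36 (0.165). Without heat shock array 1, 2 or 3 the values were -1.71 (0.0824), -1.73 (0.0998) and -1.62 (0.109) for Met and -0.73 (0.0704), -0.61 (0.135) and -0.70 (0.097) for Cdk4, without control array 4 they were -1.60 (0.0594) and -0.61 (0.0632), and without control array 5 Cdk4 was at -0.60 (0.0557). Each of these calls was lost in 8 of 23 alternatives. With the replicate number as a block Met was at -1.21 (limma adjusted p = 0.0623) and Cdk4 at -0.49 (0.192).

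After Lipofectamine 1 of the 17 clients rose and 0 fell (median -0.04), where 4.88% of all probesets were called, 1.78% higher and 3.1% lower. Taken in either direction, the count of 1 is near that of the background. Without control arrays 1 and 3 Cdk4 (-0.73, limma adjusted p = 2.74e-04) and Met (-0.83, 7.73e-04) also fell after Lipofectamine, and Akt1 (-0.62, 0.00161) fell after heat shock. These fits called 18.8% and 21.8% of all probesets. Ulk1, the kinase that starts autophagy, read between 7.53 and 7.98 in the controls and 8.35, 8.50 and 8.21 after Lipofectamine, all above the highest control. It rose by 0.55 (SE 0.11, limma adjusted p = 0.015), and the call was lost without Lipofectamine array 1 (0.55, 0.0787) or 2 (0.48, 0.0583). The loss came in 4 of 23 alternatives, also with the replicate number as a block (0.44, limma adjusted p = 0.143). Of the 17 clients, 6 had an unadjusted p under 0.05 after heat shock and 2 after Lipofectamine, where the share of all probesets was not worked out. After benzyl alcohol limma called 0 of the 17, with 4 at an unadjusted p under 0.05 (median 0.00). Wee1 differed by 0.53 there without passing (limma adjusted p = 0.0553) and by -0.14 after Lipofectamine (0.649). Without control arrays 2, 4 and 5 Wee1 (0.74, limma adjusted p = 0.00259) and the glucocorticoid receptor Nr3c1 (0.44, 0.0298) passed after benzyl alcohol, beside 12.5% of all probesets.

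Genes with the pattern most like that of Hsp90aa1 1437497_a_at were sought by the root mean square difference over the 14 arrays, after each probeset was centred on its control mean. Among 20377 probesets of other genes the nearest were Aar2 (0.139 on the log2 scale), Cacybp (0.147), Ccn3 (0.16), Zfp830 (0.164) and Ap1s2 (0.164), where Hsp90aa1 itself moved by 0.355 in the same measure. Cacybp is itself a member. Aar2, Ccn3, Zfp830 and Ap1s2 were much dimmer than Hsp90aa1, with means over all arrays of 6.945, 5.04, 5.82 and 6.38. For Stip1, which moved by 0.182, the nearest were Smarcb1 (0.091), Jmjd6 (0.108), Cops9 (0.109), Scamp3 (0.111) and Tbca (0.114). Stip1 passed in no comparison, and the measure includes the spread between replicates, so its nearest genes may be ones that also moved little. This is a description of likeness over arrays that share their control group.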

How the data were processed

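RNA of B16-F10 cells was hybridised to Affymetrix mouse arrays. The deposited values are log2 signals, which the authors made by scanning, reading with GCOS 1.2 and summarising with RMA. RMA corrects background, equalises the arrays and can compress differences of dim probesets. Its version and the arrays processed together are not given in the sources used here. Arrays have no read depth, so that their number limits the precision.

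From these values 64 Affymetrix control probesets were left out and 22626 probesets were tested with limma 3.58.1 in R 4.3.3, with no filter on signal. Control, Lipofectamine and heat shock were fitted together (11 arrays), as in the methods of the study, and comparisons with benzyl alcohol used all 14 arrays. Tests were two-sided. Benjamini-Hochberg adjustment ran over all probesets, with a threshold of 0.05. Groups came from the sample labels. Gene symbols came from the platform annotation: 20380 probesets carry 1 symbol, 691 several and 1555 none. Every member probeset is named, and in each list up to 4 genes that passed, by smallest p, each read from its brightest probeset. The members and lists were chosen with earlier results of these data known. Genes like Hsp90aa1 or Stip1 were the 5 nearest by root mean square difference. Promoter sequences are from RefSeq.

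The alternatives were other sets of arrays in the fit, a variance trend, array weights, renewed normalization, equal array medians, removal of the dimmer 50% of probesets, an F-test and pairwise p under 0.001, a fold of at least 1.5, a replicate block, either set of controls left out, and each array left out in turn. The scripts were tested on simulated data.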

Additional observations from a re-analysis of the deposited data

How the results depend on the processing

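Over 1428 values of the member probesets under alternatives, 0 calls turned direction, 70 calls were lost, 53 were gained, and 46 values that were called in neither fit changed sign. For heat shock against control 4 members were called (5.96% of all probesets). It was 2 when only the 2 groups were fitted (4.41%), 1 at an F-test and pairwise p under 0.001 (2.43%) and 1 at a fold of at least 1.5 (3.08%). The count was 5 under array weights (26%) and 5 without control arrays 1 and 3 (21.8%). With each array left out it was 0 to 4 (1.14% to 11.7%), 1 without heat shock array 1 and 0 without array 2 or 3. For Lipofectamine against control 0 were called, with 4 under array weights (36.7% of all probesets called, in place of 4.88%), 3 without control arrays 1 and 3 (18.8%), and 0 to 1 with each array left out (1.13% to 10%, with 1 without control array 1). For benzyl alcohol against control 3 were called, with 0 when only the 2 groups were fitted (0.358%, in place of 1.39%), 5 without control arrays 2, 4 and 5 (12.5%), and 0 to 3 with each array left out (0.579% to 1.95%, with 0 without benzyl alcohol array 1 or 3). Between heat shock and Lipofectamine the 1 call became 2 in the fit of 2 groups (12.8%, in place of 5.72%), 6 under array weights (48.7%), 0 with the dimmer part of the probesets removed (8.11% of those tested), 3 without control arrays 1 and 3 (13.6%), 2 without the other controls (11.6%), and stayed at 1 with each array left out (1.87% to 7.81%). The 0 with dim probesets removed comes from construction, as 8 members were then tested and Fkbp4 1416363_at was not. Between heat shock and benzyl alcohol the 1 call (7.22% of all probesets) became 0 with equal array medians (5.85%) and at the threshold of 0.001 (2.37%). It was 0 to 1 with each array left out (1% to 10.2%). With dim probesets removed it was 0 (15% of those tested), again as Fkbp4 1416363_at was not tested. Between Lipofectamine and benzyl alcohol the 2 calls became 6 under array weights (39%, in place of 11.9%), 1 at the threshold of 0.001 (4.03%), 0 at a fold of at least 1.5 (6.94%), 5 without control arrays 1 and 3 (19.2%), 5 without the other controls (17.4%), and 1 to 4 with each array left out (5.66% to 14.1%). The array weights did not fully converge, and they raised the calls over all probesets from 1349 to 5889 for heat shock, from 1104 to 8304 for Lipofectamine and from 314 to 953 for benzyl alcohol against control. The threshold of 0.001 lowered them to 549, 513 and 283. Leaving out 1 array gave 259 to 2658, 255 to 2262 and 131 to 441. Other causes were not tested.

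Replicate numbers are shared between groups, but same-numbered arrays did not deviate together: the correlation of their deviations from the group means was -0.56 to 0.44 over 18 pairs, against -0.65 to 0.63 over 54 other pairs. With the replicate number as a replicate block 2 members were called for heat shock against control in place of 4, and 192, 186 and 286 probesets in all after heat shock, Lipofectamine and benzyl alcohol. With 3 treated arrays a group and calls near the threshold, a member that did not pass is not shown to be unaffected.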
